A study of Homo sapiens with 33 samples.

Results

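Olfactory receptor (OR) genes on chromosome 11 were examined as a family that melanoma cells are not known to rely on, to see how often HA-MITF CUT&Tag left peaks near them. They were taken as the RefSeq protein-coding genes of that chromosome whose symbols are OR, a number and a letter, which gave 171 genes of the 20056 protein-coding genes in the annotation. Of these, 168 had a place on the primary sequence of chromosome 11 and were measured. The other 3 (OR8U8, OR8U9 and OR9G9) lie on alternate sequences, and no peak list held a row on such a sequence. The measured genes were set against 1129 other protein-coding genes of chromosome 11 and against all 19821 placed protein-coding genes.

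MITF is the master transcription factor of melanocytes, and it binds E-boxes such as CACGTG and the longer M-box form TCATGTG. The libraries came from UACC-257, an established human melanoma line, with MITF knockdown and doxycycline in every sample, per the labels. CUT&Tag with an anti-HA antibody was run on the cells. This assay brings a transposase to the antibody, so that DNA near the tagged protein is cleaved and given adapters. The groups carried 9 MITF variants (K243A, G244E, Y253A, E260A, Q261A, A264C, N278D, rep263A and rep217A), wild-type MITF (WT) or were labelled Empty, with 3 libraries each. What rep217A, rep263A and Empty hold is not spelled out in the labels, nor are the promoter of the tagged protein and the number of clones. Whether the replicates were grown apart is not stated either, so the spread between them may be technical. Replicates 2 and 3 of rep217A held identical lists, as did those of rep263A, and each pair was counted as 1 library, which left 28 HA-MITF libraries and 3 Empty libraries.

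OR genes encode the odorant receptors, G protein-coupled receptors of the olfactory epithelium. Each mature olfactory sensory neuron uses a single OR allele, and in other tissues most members of the family are silent and lie in large clusters of condensed, AT-rich DNA. Class I genes (here the OR51, OR52 and OR56 families) form an ancient group on the short arm of chromosome 11, and class II genes make up the rest.

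A gene counted as having a peak when any peak overlapped its span or the 5000 bp on either side, and as having a strong peak when such a peak had a deposited −log10 q of at least 5. Depth differed widely. Relative depth, read as the commonest background pileup of a list, was 0.697 to 1.49 in A264C, E260A, N278D, Q261A and Y253A. It was 0.427 to 0.487 in rep263A, 0.276 to 0.348 in rep217A, 0.132 to 0.244 in K243A and 0.108 to 0.151 in G244E. It was 1.08 to 1.201 in WT and no more than 0.03 in Empty. The lists held 81488 to 300000 peaks, and a −log10 q grows with depth as well as with enrichment. The 8 melanocyte lineage genes chosen as markers had a strong peak in every WT library and in no Empty library. The same held for 66.6% of all genes. Peaks of a tagged factor do not measure cell identity, so the labelled line was not checked by them.

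The stretch around an OR gene start differed from that of other genes before any peak was counted. RefSeq promoter windows (GRCh38.p14, 250 bases before to 50 bases after the start) were on hand for 135 of the 168 OR genes. Their median GC content was 37%, against 62.7% for 818 other chromosome 11 promoters, and they held a median of 1 CpG, against 22. CACGTG, read on both strands, occurred in 1 of the 135 OR promoters (0.741%), against 8.68% of the other chromosome 11 promoters and 8.87% of all 15812 promoters. CATGTG occurred in 14.1% of the OR promoters, against 7.09% of the other chromosome 11 promoters and 8.43% of all promoters. TCATGTG, which contains CATGTG, occurred in 5.19% of OR promoters and 2.26% of all promoters. A match is a run of letters and was not tested as a binding site.

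The promoters below show the few OR genes on which the results turn, with TYR, the tyrosinase gene and a classical MITF target, for comparison. Sequences are from RefSeq (GRCh38.p14), 5′ to 3′ on the gene's strand, with CACGTG and CATGTG on either strand in capitals. OR10V1 (chr11:59713796-59714095, minus strand) was the only OR promoter overlapped by a strong peak in any library, and it held neither motif. OR6T1 (chr11:123943789-123944088, minus strand) was the only OR promoter with CACGTG. OR9G1 (chr11:56698845-56699144, plus strand) had the highest WT peak of the family. OR52J3 (chr11:5046276-5046575, plus strand) separated WT from 6 variants. The TYR promoter (chr11:89177625-89177924, plus strand) was under a strong peak in 27 of 31 libraries.
OR10V1: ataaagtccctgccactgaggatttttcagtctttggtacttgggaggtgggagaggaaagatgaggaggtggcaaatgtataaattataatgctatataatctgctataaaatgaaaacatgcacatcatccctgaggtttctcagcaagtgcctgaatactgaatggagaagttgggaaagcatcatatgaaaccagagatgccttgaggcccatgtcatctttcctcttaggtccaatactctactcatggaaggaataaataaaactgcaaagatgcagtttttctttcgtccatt
OR6T1: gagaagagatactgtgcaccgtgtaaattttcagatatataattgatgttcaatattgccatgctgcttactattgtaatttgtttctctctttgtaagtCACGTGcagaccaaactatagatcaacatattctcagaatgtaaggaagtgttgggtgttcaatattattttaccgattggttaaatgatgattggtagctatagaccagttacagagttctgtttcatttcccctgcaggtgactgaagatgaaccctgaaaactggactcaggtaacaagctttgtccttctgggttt
OR9G1: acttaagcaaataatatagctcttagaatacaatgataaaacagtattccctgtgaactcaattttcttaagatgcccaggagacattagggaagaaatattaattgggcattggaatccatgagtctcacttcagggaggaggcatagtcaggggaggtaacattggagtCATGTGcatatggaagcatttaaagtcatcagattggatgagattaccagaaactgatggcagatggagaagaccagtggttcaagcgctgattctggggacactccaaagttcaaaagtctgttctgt
OR52J3: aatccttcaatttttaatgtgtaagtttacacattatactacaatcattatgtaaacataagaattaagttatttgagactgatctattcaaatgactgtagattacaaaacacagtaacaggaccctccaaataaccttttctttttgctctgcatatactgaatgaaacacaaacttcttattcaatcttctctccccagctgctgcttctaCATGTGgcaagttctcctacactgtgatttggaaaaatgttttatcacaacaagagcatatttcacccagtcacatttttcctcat
TYR: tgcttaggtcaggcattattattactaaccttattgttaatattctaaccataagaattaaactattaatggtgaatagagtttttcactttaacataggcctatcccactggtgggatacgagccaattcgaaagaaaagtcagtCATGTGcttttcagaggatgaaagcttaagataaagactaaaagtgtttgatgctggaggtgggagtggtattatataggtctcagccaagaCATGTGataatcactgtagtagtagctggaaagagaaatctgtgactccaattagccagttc

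The OR6T1 promoter had no peak of any kind in any library, and the whole OR6T1 window had a weak peak in 1 library. TCATGTG stood in the promoters of 7 OR genes (OR52E2, OR10A3, OR4C46, OR5D13, OR8K1, OR8U3 and OR9G1). None of these 7 promoters was under a strong peak, and OR9G1 was the only member with a strong peak elsewhere in its window. Over all 135 OR promoters, 12 were touched by any peak in any library. In E260A, 0.494% ± 0.428 of OR promoters had a strong peak, which was OR10V1 in 2 of the 3 libraries, against 63.6% ± 0.244 of other chromosome 11 promoters (SD, n = 3). In WT, 0 OR promoters had one in any of the 3 libraries, against 62.7% ± 0.509 of the others (SD, n = 3). In Empty it was 0 of the OR promoters and 3.63% ± 1.43 of the others (SD, n = 3).

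OR genes were largely free of strong peaks. In WT, 7, 10 and 7 of the 168 genes had one, a share of 4.76% ± 1.03 (SD, n = 3), against 82.5% ± 0.688 of the other chromosome 11 genes. In Empty, no OR gene had a strong peak in any of the 3 libraries, against 6.55% ± 2.18 of the other chromosome 11 genes (SD, n = 3). The OR shares of the groups did not overlap. The order turned round when lists were matched by rank, which counts peaks whatever their −log10 q. Empty lists held only 563 to 1310 strong peaks in all. Most peaks counted there were thus not strong. With every list shortened to the same number of peaks, the share of OR genes near a peak was 4.56% in WT and 8.33% in Empty, and among the 10000 strongest peaks of each list it was 0.794% in WT and 2.18% in Empty. Over all 31 libraries, 141 OR genes (83.9%) never had a strong peak, against 7.79% of the other chromosome 11 genes and 10.4% of all genes. The median OR gene had a strong peak in 0 libraries and the median gene overall in 26.

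Of the variants, E260A had the most at this threshold and at its own depth. There, 19, 20 and 18 OR genes had a strong peak, a share of 11.3% ± 0.595 (SD, n = 3), and every E260A library lay above the WT range of 7 to 10 genes. The share of all genes with a strong peak was also higher, at 83.2% to 83.8% in E260A and 79.2% to 81.02% in WT. N278D libraries had 15, 11 and 17 such genes, Q261A libraries 14, 13 and 13, Y253A libraries 12, 14 and 13, and rep263A libraries 11 and 12. These 4 groups also lay above the WT range. Over all genes, N278D (82.9% to 83.2%) and Y253A (81.9% to 83.2%) lay above WT too, Q261A (79.7% to 80.6%) overlapped it and rep263A (76.5% to 77.8%) lay below it. A264C libraries had 11, 14 and 9, which overlapped WT. K243A libraries had 2, 2 and 3, rep217A libraries 2 and 3, and G244E libraries 1, 0 and 1, and these 3 groups, all of lower depth, lay below the WT range for OR genes and, at 52.1% to 64.4%, for all genes. At a −log10 q of at least 10, E260A and N278D were equal at 6.75%, and after thinning to a common depth E260A overlapped WT. The shares are counts over a chosen family, so they are given as a description with no p-value.

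**Figure D1:**
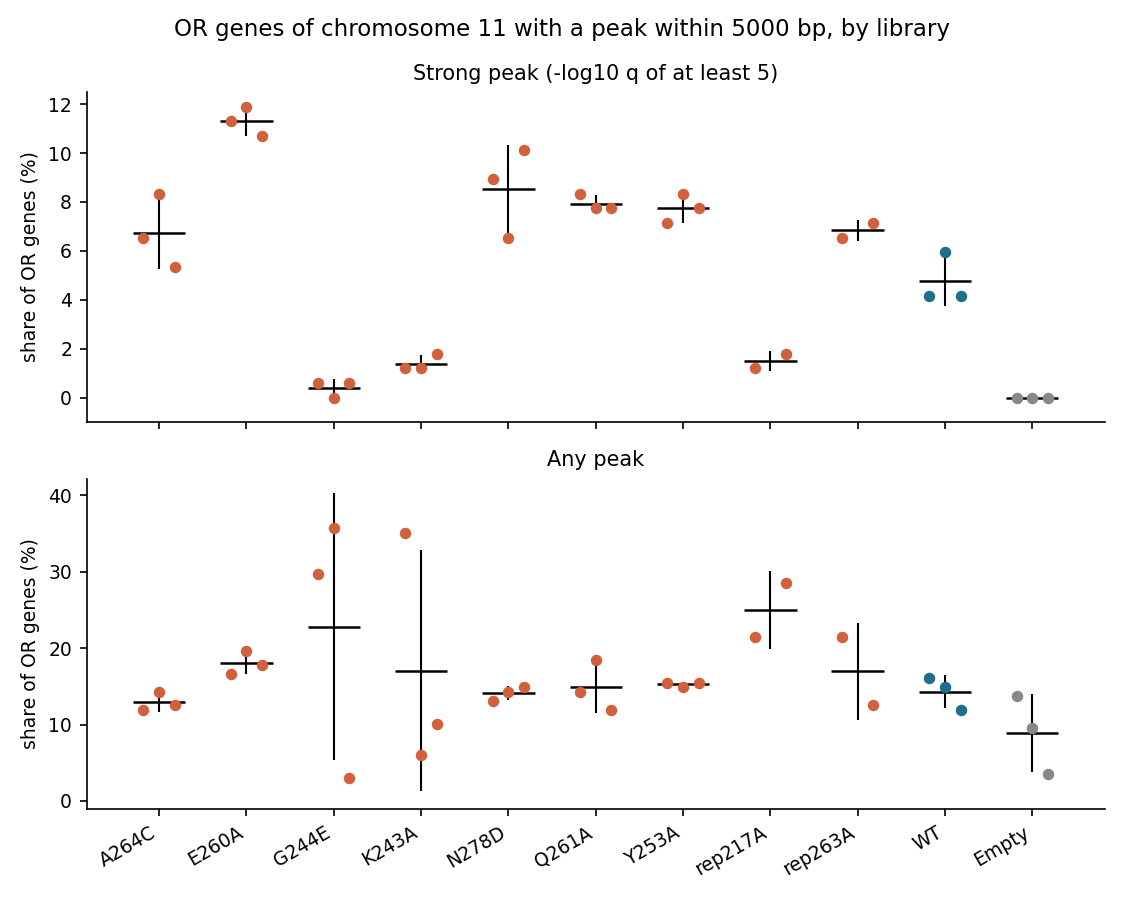
Share of the 168 OR genes of chromosome 11 with a strong peak (top) or any peak (bottom) within 5000 bp, in percent, for each library (points), with the group mean (bar) and SD (line). Strong-peak shares were 10.7% to 11.9% in E260A, 4.17% to 5.95% in WT and 0 in Empty, while any-peak shares of WT and Empty overlapped.

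Counting any peak gave a different order of groups. WT libraries had 20 to 27 genes with any peak, a share of 14.3% ± 2.15 (SD, n = 3). Empty libraries had 6 to 23, a share of 8.93% ± 5.09 (SD, n = 3), and the ranges overlapped. The highest values came from the shallow variants, rep217A among them with 36 and 48 genes. Over all genes, the share with any peak was 89.9% to 92.0% in rep217A, 89.2% to 91.1% in WT and 75.6% to 82.9% in Empty. It was 82.4% to 93.5% in G244E and 83.2% to 93.5% in K243A. G244E libraries had a peak near 50, 60 and 5 OR genes, and K243A libraries near 59, 10 and 17. The 3 libraries of 50 or more genes were also those in which 52.8%, 58.8% and 54.7% of all peaks held a pileup of 1 tag. In Empty, 60.7% to 67.6% of peaks were of this kind, and in WT 0%. The rep217A lists held 0% of such peaks. With such peaks left out, the share of OR genes with any peak averaged 10.3% in G244E and 10.3% in K243A, against 14.3% in WT and 4.37% in Empty. With the lists that hold them left out instead, 1 G244E library remained, at 2.98%. The part of these peaks in the result was otherwise not tested.

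The same peaks were placed by territory, which sets aside the length of genes. The median OR span was 1103 bp and that of the other chromosome 11 genes 18221 bp. In E260A, the OR windows (2.40 Mb) held 9.85 strong peaks per Mb, gene-free stretches of chromosome 11 (39.0 Mb) 34.2, and windows of other genes (68.2 Mb) 44.5. In WT the densities were 3.47, 25.7 and 37.1 strong peaks per Mb in the same order. In Empty they were 0, 0.222 and 0.733. Peaks of any kind were also sparser in OR windows than in gene-free stretches in 31 of 31 libraries, with ratios of 0.0509 to 0.426. This ratio averaged 0.208 ± 0.0275 over WT libraries and 0.217 ± 0.12 over Empty libraries (SD, n = 3 each), and the ranges overlapped. For strong peaks the ratio of OR windows to gene-free stretches was 0.288 ± 0.0195 in E260A and 0.136 ± 0.0194 in WT (SD, n = 3 each), with no overlap. OR windows were thus below the gene-free part of the same chromosome in libraries with and without HA-MITF.

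**Figure D2:**
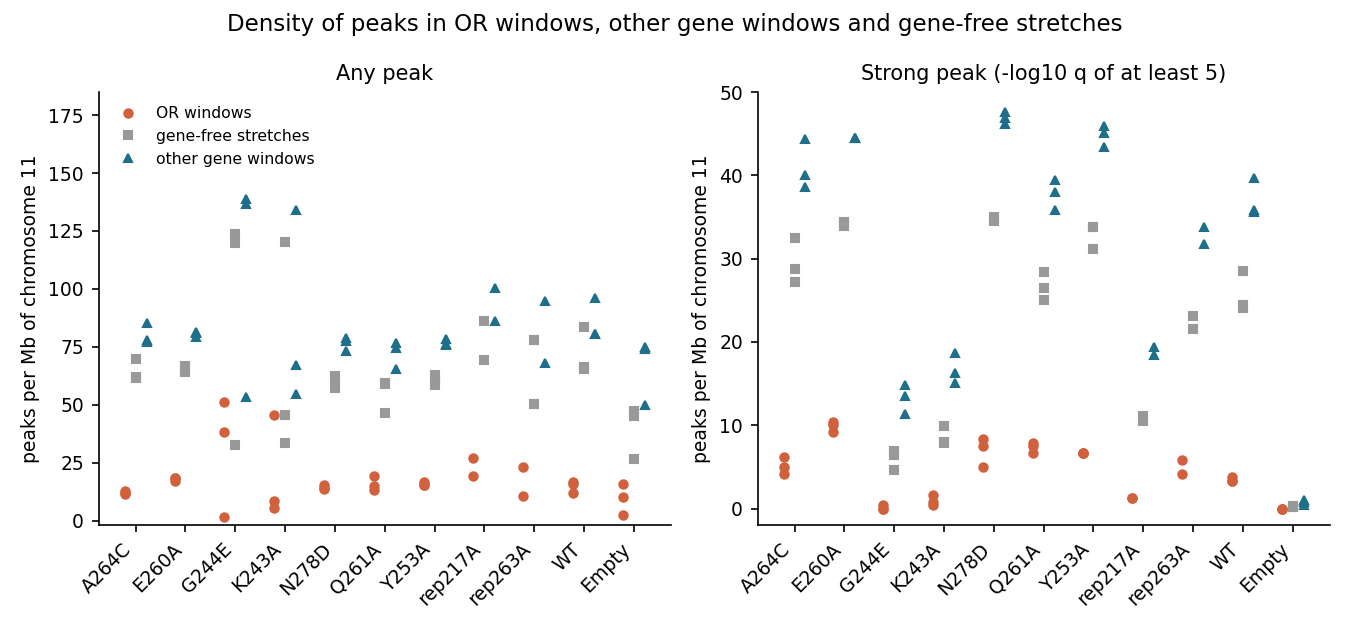
Peaks per Mb of chromosome 11 in OR windows, gene-free stretches and windows of other genes, each point 1 library, for any peak (left) and strong peaks (right). OR windows were lowest in each library for any peak, and for strong peaks averaged 9.85 per Mb in E260A and 3.47 per Mb in WT.

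Within the family, 27 genes had a strong peak in at least 1 of the 31 libraries. Of these, 6 had one in at least 20 libraries and 4 in exactly 1 library. A further 33 OR genes (19.6%) had no peak of any kind in any library, against 1.94% of all genes. The first 5 of them by position were OR52K2, OR52R1, OR51S1, OR51B2 and OR52H1. Another 44 had a peak in exactly 1 library. Strong peaks of all libraries merged into 36 regions, of which 7 were seen in every WT library, 7 in a single library and 0 in Empty. Most did not mark a gene start: of 256 library-level best peaks of genes with a known start, 11 had a summit within 500 bp of it.

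Fisher's exact test per gene, two-sided, compared the number of libraries with a strong peak between the 28 HA-MITF and the 3 Empty libraries, with Benjamini-Hochberg adjustment over all 19821 genes. It called 4 OR genes (OR9Q1, OR9G1, OR52W1 and OR51F2), or 2.38% of the family, as having strong peaks in more HA-MITF libraries. The same test called 68.3% of all genes and 70% of the other chromosome 11 genes, so the OR share lay far below that background. At an unadjusted p of up to 0.05 the count was 6 OR genes. With 3 libraries against 3, this test could not go below 0.1, and with 28 against 3 its smallest p is 0.000222. The test takes each library as 1 unit and pools WT with 9 variants, whose replicates may be technical. Its p-values therefore describe libraries, not constructs or cultures. The calls rested on few Empty libraries: without replicate 1, 2 or 3 of Empty, 1 OR gene was called each time. Without G244E and K243A, 7 OR genes were called. At the depth limit of Empty, described with the thinned values, 0 were called.

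OR9G1 carried the highest peak of the family. Its strongest −log10 q was 201, 282 and 152 in A264C and 119.9, 131 and 138 in E260A. It was 213 to 272 in N278D, 164 to 213 in Q261A, 229.6 to 270.1 in Y253A and 89.9 to 148 in rep263A. The shallow groups were low, at 4.23 to 13.6 in K243A, 8.98 to 9.30 in rep217A and 1.12 to 3.58 in G244E. It was 238, 189 and 222 in WT, with a fold enrichment of 18.1 to 21.5 over local background and 215 to 251 tags at the summit, and no peak was listed in any Empty library. E260A and rep263A, both shallower than WT, lay below the WT range of −log10 q, and A264C, N278D, Q261A and Y253A overlapped it. Fold enrichments overlapped WT in E260A (15.4 to 18.5) and rep263A (17.9 to 22.5). A strong peak was present in 24 of 28 HA-MITF libraries and 0 of 3 Empty libraries (Fisher's exact test, adjusted p = 0.0133). The WT replicate 1 peak covered chr11:56700865-56701474, inside the gene span and 2065 bp from the gene start at its summit. OR9G1 is a class II gene. OR9G9 of the same subfamily lies on an alternate sequence, and how the authors' alignment placed reads shared by near-identical copies is not stated in the labels.

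OR9Q1 had the most libraries with a strong peak, 26 of 28 with HA-MITF and 0 of 3 Empty (Fisher's exact test, adjusted p = 0.005). Its strongest −log10 q was 117.7 to 156 in E260A, 192 to 227 in Y253A, 213 to 249.6 in N278D, 102 to 203 in A264C, 108 to 145 in Q261A and 73.0 to 104 in rep263A. It stayed above the threshold in rep217A (13.4 and 12.7) and K243A (6.0, 27.1 and 24.6), and passed it in 1 G244E library (7.38, 2.0 and, just under the threshold, 5.0). It was 129.6, 80.7 and 88.2 in WT and 0.56, 0.50 and 1.63 in Empty. N278D and Y253A lay above the WT range. The peak lay at chr11:58070572-58071100 in WT replicate 1. The RefSeq span of OR9Q1 is 157736 bp, among the longest of the family, and the summit stood 47008 bp from the start. The Empty replicate 3 peak (chr11:58070624-58070839), with 2 tags, lay at the same place, and the weak peaks of the other Empty libraries lay elsewhere in the span.

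OR52W1 and OR51F2, both class I, were the other genes called. OR52W1 had a strongest −log10 q of 65.8 to 93.4 in N278D, 61.4 to 81.5 in Y253A, 47.5 to 72.4 in Q261A and 38.4 to 52.3 in E260A. It had 68.3, 43.6 and 29.96 in WT, a range that each of these groups overlapped, and no listed peak in Empty (22 of 28 HA-MITF libraries, Fisher's exact test, adjusted p = 0.0288). Its summit lay 5065 bp outside the span in WT replicate 1, so the peak entered the 5000-bp window by its edge. OR51F2 had 11.4, 9.73 and 18.8 in WT and no listed peak in Empty (21 of 28, Fisher's exact test, adjusted p = 0.0391). OR51F2 is 1 of 11 OR genes that sit in or beside MMP26, a matrix metalloproteinase gene, so the peak cannot be assigned to either.

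OR5A1, the receptor for the violet-like odorant beta-ionone, and OR4D6 shared a single peak between the genes (chr11:59455566-59455969 in WT replicate 1), so they are not independent. The peak had a −log10 q of 39.1 to 47.7 in E260A, 55.9 to 67.6 in N278D and 24.0 to 43.4 in Y253A. In WT it had 19.9, 18.3 and 9.23, and these variants lay above WT. A264C (16.8 to 36.9), Q261A (11.1 to 21.1) and rep263A (5.68 to 15.5) overlapped WT, and G244E, K243A and rep217A had no strong peak there. The peak was absent from the Empty lists, where OR4D6 had only weak peaks of 0.49 and 0.50 at another place. It was strong in 20 of 28 HA-MITF libraries and 0 of 3 Empty libraries, which missed the threshold (Fisher's exact test, adjusted p = 0.0516). OR8J3 had 6.02, 7.53 and 8.15 in WT and no listed peak in Empty, and was strong in 16 libraries (Fisher's exact test, adjusted p = 0.131). These genes together made 7 OR genes (4.17%) with a strong peak in every WT and no Empty library, against 66.6% of all genes.

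**Figure D3:**
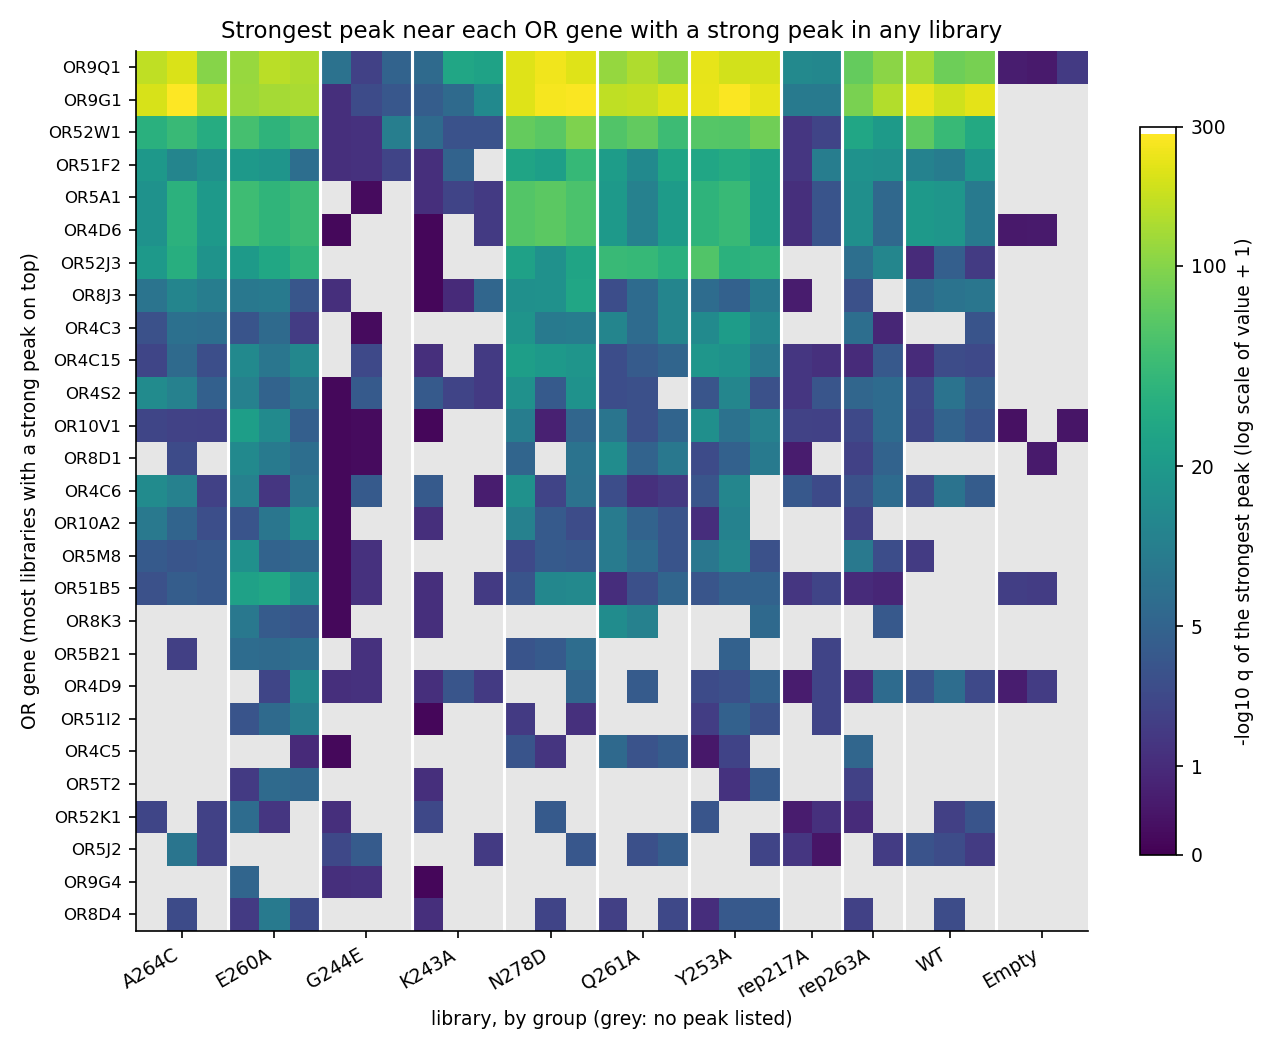
Strongest −log10 q within 5000 bp of each of the 27 OR genes that had a strong peak (top to bottom), in each of the 31 libraries (left to right, by group), on a log colour scale, with grey where no peak was listed. OR9Q1 and OR9G1 stood out at the top in WT and most variants, and the Empty libraries held weak peaks or none.

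OR51E1 and OR51E2, which are expressed outside the nose, in prostate among other tissues, had no strong peak in any library. Each had a weak peak in 3 of 31 libraries. OR2AT4, a receptor known from skin keratinocytes that was picked after its values were seen, had a weak peak in 21 libraries, all 3 WT and 2 of the 3 Empty libraries included, and a strong peak in none.

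Some OR genes were strong in a variant and in no WT library. OR52J3 was the clearest case and was picked after its values were seen. Its strongest −log10 q was 19.8, 33.5 and 17.1 in A264C, 20.7, 28.02 and 38.7 in E260A, and 24.5, 16.5 and 26.1 in N278D. It was 44.8, 43.4 and 35.0 in Q261A, 60.2, 35.9 and 38.5 in Y253A, and 6.83 and 12.5 in rep263A. It was 0.987, 4.5 and 1.69 in WT, with no listed peak in G244E, rep217A or Empty. None of these 17 variant libraries overlapped the WT values, at a relative depth of 0.427 to 1.49 in the variants and 1.08 to 1.201 in WT. The strongest WT library lay just under the threshold of 5. In E260A replicate 1 the peak (chr11:5046813-5047807) covered much of the short gene itself.

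Counts of this kind were small and were read against all genes. Only a gene with no strong WT peak can enter them. At least 1 WT library had a strong peak near 10 of the 168 OR genes and 16523 of all 19821 genes. For other chromosome 11 genes it was 967 of 1129. Far more of the OR family could therefore enter, so the shares below do not show more gain in OR genes than elsewhere. OR52J3 alone was strong in every A264C and no WT library (0.595% of the family, against 0.353% of all genes and 0.531% of other chromosome 11 genes), and alone in the same count for rep263A (0.595% against 0.262%). For E260A there were 6 such genes, OR52J3, OR51B5, OR4C15, OR5M8, OR5B21 and OR8D1 (3.57% against 1.67% of all genes and 1.33% of other chromosome 11 genes). For N278D there were 3, OR52J3, OR4C3 and OR4C15 (1.79% against 1.17%). Q261A had 3, OR52J3, OR4C3 and OR8D1 (1.79% against 0.6%), and Y253A had 4, OR52J3, OR4C3, OR4C15 and OR10V1 (2.38% against 1.13%). These counts have no p-value, since 3 libraries against 3 cannot reach the threshold, and the genes named were picked after their values were seen.

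Values of these genes show how narrow some of the margins were. OR51B5 had 24.1, 27.1 and 15.9 in E260A and no listed peak in WT. OR4C15 had 13.4, 8.20 and 12.6 in E260A, against 0.987, 2.70 and 2.47 in WT. OR8D1 had 13.4, 9.33 and 6.62 in E260A and none in WT. OR5M8 and OR5B21 were closer to the threshold, at 5.02 to 16.0 and 6.04 to 6.62 in E260A. OR10V1, the promoter shown above, had 22.5, 13.9 and 4.56 in E260A and 15.6, 7.35 and 11.04 in Y253A. In WT it had 2.25, 4.99 and 3.36, the second just under the threshold.

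In the other direction, the shallow variants lacked WT peaks. Only a gene strong in every WT library can enter this count, which left 7 OR genes and 15203 of all genes. Shares of the whole family therefore understate how often such OR peaks were missing. Strong in every WT and no G244E library were 5 of the 7, OR51F2, OR8J3, OR9G1, OR5A1 and OR4D6 (2.98% of the family). Over all genes it was 2327 of the 15203 (11.7% of all genes). The same count for K243A gave 3 of the 7, OR51F2, OR5A1 and OR4D6 (1.79%), against 1554 of the 15203 (7.84%). For rep217A it gave 4 of the 7, OR52W1, OR8J3, OR5A1 and OR4D6 (2.38%), against 1939 of the 15203 (9.78%). These variants were shallower than WT. With every library thinned to a relative depth of 0.108, as described with the thinned values, OR9G1 had a strong peak in 0 draws of each G244E library and in all 5 draws of each WT library. OR52W1 had one in 0 draws of both rep217A libraries, and in a share of 1, 0.6 and 0.4 of the draws of WT replicates 1, 2 and 3. OR51F2, OR8J3, OR5A1 and OR4D6 were at 0 draws in every thinned WT library. K243A (0.132 to 0.244) and rep217A (0.276 to 0.348) were deeper than this setting, which also uses −log10 p of at least 8. The draws therefore cannot say whether peaks of the WT size were detectable in K243A or rep217A. The part of depth in the missing peaks was not tested.

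Depth was put on 1 footing by thinning the recovered tag pileups of each library to the depth of the shallowest HA-MITF library (0.108), where strong means −log10 p of at least 8. OR genes then had such a peak at a share of 2.46% ± 0.793 in E260A and 1.47% ± 0.182 in WT (SD, n = 3 each), and the ranges, 1.55% to 2.98% and 1.31% to 1.67%, overlapped. N278D (2.26% to 3.33%) and Q261A (1.79% to 2.74%) stayed above WT. All genes were also higher there, at 53.7% in N278D, 53.2% in Q261A and 51.6% in E260A, against 46.4% in WT. Y253A (1.55% to 2.74%) and A264C (1.19% to 1.43%) overlapped it, and the lower rep263A library equalled the highest WT library (1.67%). G244E (0% to 0.476%), rep217A (0.357% in both libraries) and K243A (0.714% to 1.07%) stayed below it. In other chromosome 11 genes G244E and K243A lay above WT, with 54.1% ± 0.62 in G244E, 54.1% ± 3.72 in K243A and 47.7% ± 0.485 in WT (SD, n = 3 each). In rep217A the other chromosome 11 genes lay below WT as the OR genes did, at 42.1% ± 2.104 (SD, n = 2). At the depth limit of Empty (0.03), OR genes were at 0.198% ± 0.0687 in WT and 0% in Empty. Other chromosome 11 genes averaged 17% ± 0.596 over WT libraries and 12.1% ± 1.57 over Empty libraries (SD, n = 3).

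**Figure D4:**
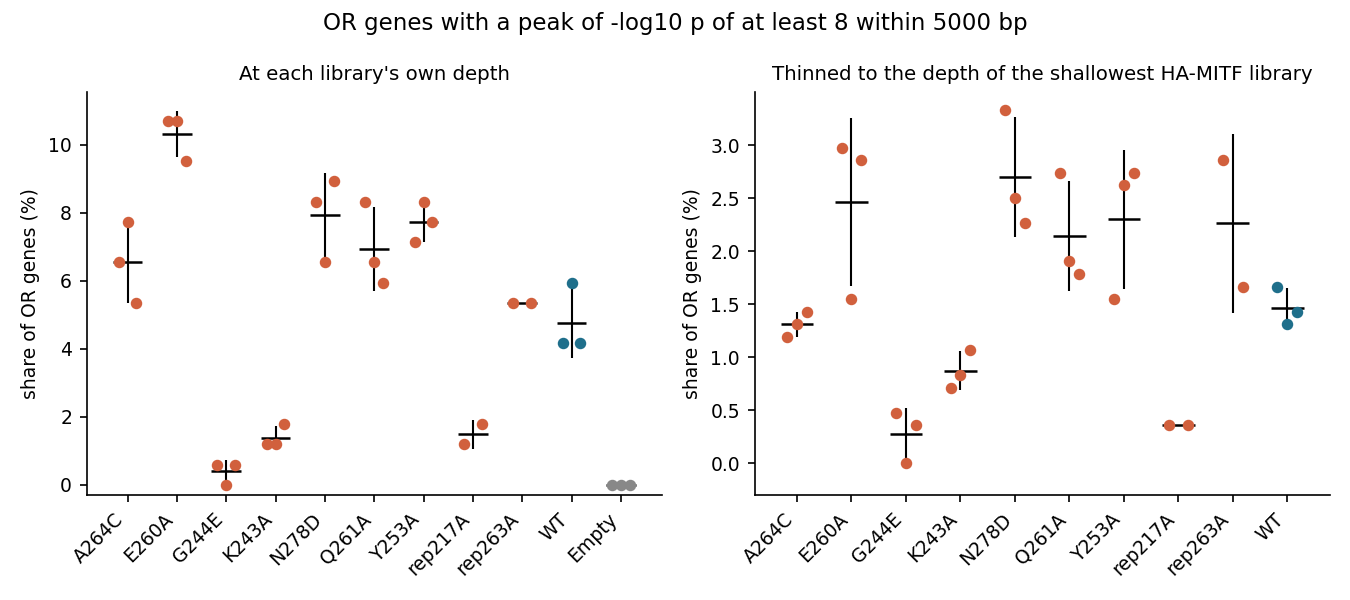
Share of the 168 OR genes with a peak of −log10 p of at least 8 within 5000 bp, in percent, for each library at its own depth (left) and after thinning to the shallowest HA-MITF library (right), with group mean (bar) and SD (line). E260A and WT did not overlap at their own depth and overlapped after thinning (1.55% to 2.98% and 1.31% to 1.67%).

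The 168 genes fell into 11 clusters, split at gaps above 500 kb, and the clusters were unequal. The largest, OR52B4 to OR52W1, held 55 genes, all of class I, of which 6 had a strong peak in any library. The next, OR4A16 to OR5AK2, held 46 genes, of which 10 did. A cluster of 8 genes, OR5AN1 to OR10V1, had 4. There the strong share was 37.5% ± 0 in E260A and 29.2% ± 7.22 in WT (SD, n = 3 each), with none in Empty. The 22 genes from OR6X1 to OR8A1 had no strong peak in WT, and 6.06% ± 2.62 had one in E260A. Class I genes were at 9.09% in E260A and 3.64% in WT. Class II genes were at 12.4% in E260A and 5.31% in WT, so E260A was above WT in both classes at own depth, as it was over all genes (83.6% in E260A and 79.97% in WT). Only 14 OR genes had a protein-coding gene of another family within 5000 bp, and without them the WT share was 4.55%.

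How often peaks of OR windows recurred within a group was set beside windows of other genes. In E260A, 64.4% ± 2.61 of the peaks of any kind in OR windows were overlapped by peaks of both other E260A libraries, against 63.6% ± 1.46 in windows of other genes (SD, n = 3). In WT it was 40.9% ± 6.42 in OR windows and 54.2% ± 5.31 in windows of other genes (SD, n = 3). Other variants had means in OR windows near that of E260A, at 62.5% in A264C, 61.7% in N278D, 60.3% in Q261A and 63.2% in Y253A. The shallow G244E (8.97%) and K243A (21.8%) were lower. In Empty, 0 of 68 such peaks recurred in both other libraries, against 9.42% ± 2.36 in windows of other genes. Of strong OR peaks, those that recurred were 62 of 71 in E260A (87.1% ± 5.10) and 24 of 25 in WT (95.8% ± 7.22). In windows of other genes the shares of strong peaks were near these, at 91.9% ± 0.725 and 92.7% ± 2.53 (SD, n = 3 each).

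Most lists of genes near the family or of similar tissue restriction stood between OR genes and the genome. Of the 48 genes of other families within 100 kb of an OR gene, 63.2% ± 1.203 had a strong peak in E260A, 58.3% ± 2.08 in WT and 2.08% ± 3.61 in the Empty libraries (SD, n = 3). The 5 beta globins, which lie within an OR cluster, were at 20% in WT, and the 16 MS4A genes, membrane proteins of blood cells, at 43.8% ± 6.25. KRTAP5 hair keratin-associated genes were at 33.3% ± 5.25 and MRGPRX itch receptors at 50% in WT. Pepsinogens were at 33.3% and apolipoproteins at 75% in WT. The lists of beta globins, MS4A, KRTAP5, MRGPRX, pepsinogen and apolipoprotein genes were at 0% in Empty. The 16 housekeeping genes and the 7 MITF-related genes of chromosome 11 were at 100% in WT, and at 14.6% ± 9.55 and 4.76% ± 8.25 in Empty.

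Genes that serve olfaction without being receptors had higher shares than the receptors. Of 18 genes of olfactory signalling and OR regulation, 79.6% ± 3.21 had a strong peak in E260A and 66.7% ± 0 in WT (SD, n = 3 each), with none in Empty. Over all genes the shares were 83.6% in E260A and 79.97% in WT, so the list lay below the background in both. OMP, the olfactory marker protein, GNAL, the olfactory G protein alpha subunit, and ADCY3, the adenylyl cyclase of the cilia, were strong in every WT library. CNGA2, a subunit of the olfactory cyclic nucleotide-gated channel, RTP1, an OR transport protein, and EMX2 had no strong peak in any library. A peak near a gene is not a measure of its expression.

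**Figure D5:**
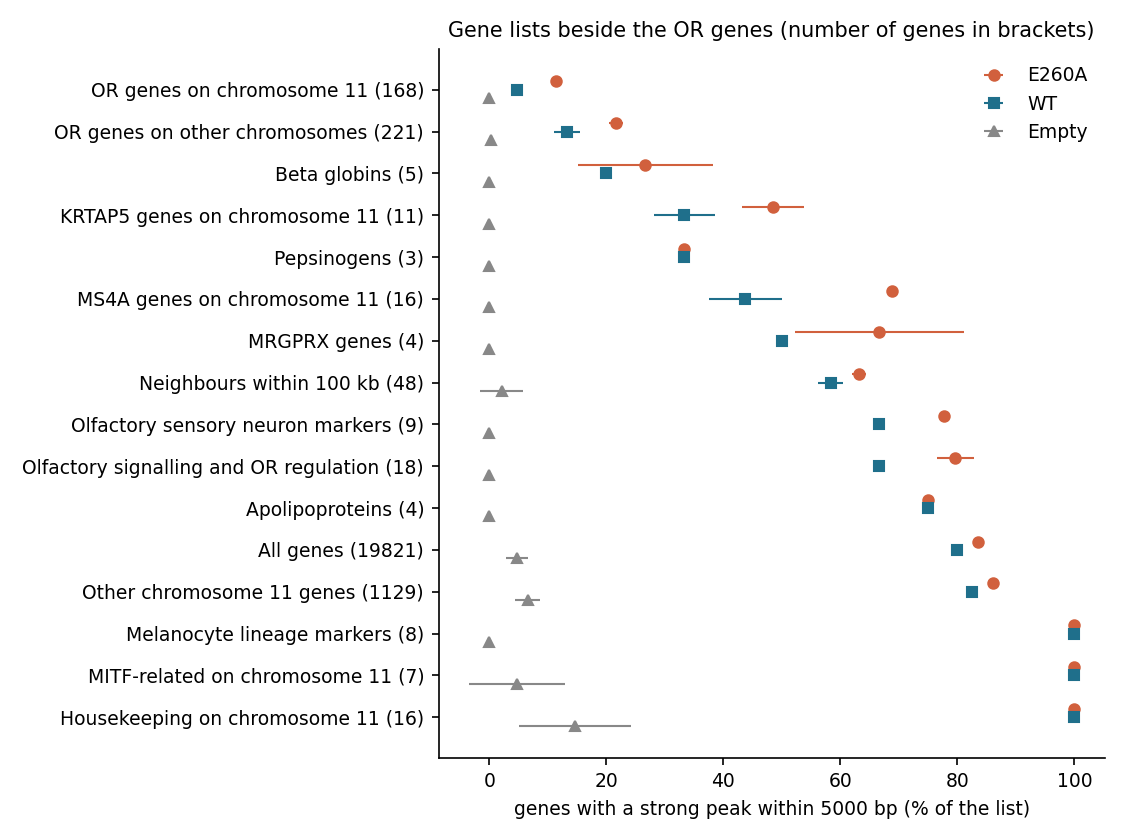
Share of each gene list with a strong peak within 5000 bp, in percent (mean and SD over 3 libraries), in E260A, WT and Empty, with the number of genes in brackets. OR genes of chromosome 11 were lowest in WT at 4.76%, and lineage, housekeeping and MITF-related genes were at 100%.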

How the data were processed

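HA-MITF CUT&Tag peak lists in narrowPeak form were read as deposited, 1 list per library, with coordinates on hg38. Per the submitters' processing notes, the tools were MACS2 (no version), Bowtie2 2.3.4.3 and bcl2fastq 2.20.0.422. Each peak carries the authors' fold enrichment (a ratio), −log10 p, −log10 q and summit offset as deposited, and the deposited score was not used. Other settings of the calling are not given in the sources used here.

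Gene spans came from RefSeq (GRCh38.p14). Pileups were recovered from the fold and p and thinned in 5 draws. They were whole within 0.002 in −log10 p for 100% of peaks of low −log10 p, and within 0.05 for 100% of all peaks. Fisher's exact test used a threshold of 0.05. Python 3.11.15, NumPy 2.4.6, SciPy 1.17.1 and pandas 2.3.3 were used, and the tests were run on simulated data first. The members and lists were chosen with earlier results of these data known. The genes named were OR genes strong in every WT library, in at least 2 Empty libraries (0 genes) or in most libraries, with OR51E1, OR51E2 and, by position, up to 5 OR genes with no peak; others are said to have been picked after their values were seen. Replicate numbers did not pair samples: deviations from the group means correlated at −0.0598 to 0.0419 between same-numbered libraries. Intervals were not given, since the lists hold no read totals. Alternatives changed the window, the threshold, the list length, the depth, the libraries, the family and the adjustment.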

Additional observations from a re-analysis of the deposited data

Results flagged for a closer look

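OR genes on chromosomes other than 11 (221 genes) were not part of the comparisons above and appear in the plot of gene lists. A strong peak lay within 5000 bp of 21.7% ± 1.197 of them in E260A libraries, 13.3% ± 2.23 in WT libraries and 0.302% ± 0.522 in Empty libraries (SD, n = 3), a signal outside the main measurement that stood above the control. The lowest WT library, at 11.8%, lay above the highest Empty library, at 0.905%. Over all genes the same groups stood further apart, at 79.2% to 81.02% in WT and 3.10% to 6.74% in Empty. All these shares are at own depth, which was 1.08 to 1.201 in WT and no more than 0.03 in Empty. No thinned share is given for these 221 genes. The difference from chromosome 11 was not tested. With 3 libraries a group, no test for a library far from the others was made.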

How the results depend on the processing

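No log2 ratio changed sign under the alternatives run, and counts and shares cannot be negative, so for them this says nothing. In the share of OR genes near a peak, though, WT lay below Empty when lists were matched by rank. With a replicate block, the exact test called 4 OR genes, as without it, and the numbers did not pair the samples. The 4 calls became 2 with a window of 0 bp. They became 0 under Bonferroni adjustment, at the depth limit of Empty, with lists of equal length and with the 10000 strongest peaks. They were 9 with a window of 10000 bp, 7 at −log10 q of at least 2, 7 without G244E and K243A and 7 with WT and A264C against Empty. Leaving out replicates gave 0 to 4 calls: 0 without replicate 1 of every group, 1 without replicate 2 or 3 of every group or any Empty replicate, and 4 without any WT replicate. The 7 genes strong in every WT and no Empty library became 2, 4 and 11 with windows of 0, 2000 and 10000 bp, 11 and 3 at −log10 q of at least 2 and 10. It became 4 with equal lists, 0 at the depth limit of Empty and 1 with the 10000 strongest peaks.

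The WT strong share of 4.76% became 1.19%, 2.38% and 7.74% with windows of 0, 2000 and 10000 bp. It was 8.53% and 2.98% at −log10 q of at least 2 and 10, 0.794% for the 10000 strongest, 0.198% at the depth limit of Empty and 1.47% at the common depth. The Empty share of 0% became 0.397% at −log10 q of at least 2, 2.18% with the 10000 strongest peaks and 8.33% with lists of equal length. In the last of these WT was at 4.56%. The log2 ratio of the OR to the other chromosome 11 share, −4.14 in WT for strong peaks, was −5.98, −5.05 and −3.48 with the 3 windows. It was −3.38 and −4.70 with the 2 thresholds, −5.51 with the 10000 strongest peaks, −6.49 and −5.03 at the 2 depths, and −3.86 with windows of equal length. The WT share with any peak, 14.3%, was 5.36%, 8.73% and 19.2% with the 3 windows and 4.56% with equal lists. Its log2 ratio, −2.71, was −4.01, −3.38, −2.31 and −4.16 in the same settings, and the Empty ratio of −3.43 was −4.48 with a window of 0 bp. The alternatives with −log10 p of at least 8 at own depth (4 calls) and without the lists holding 1-tag peaks (4 calls) were chosen after seeing the data. The cause of these shifts was not tested, except where the setting itself leaves fewer peaks or libraries.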

Other observations

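Strong peaks of OR windows fell into 36 merged regions, and 13 of them were seen in at least 10 libraries. The region at chr11:48328008-48328502, near OR4C3, was strong in 2 A264C, 1 E260A, 3 N278D, 3 Q261A, 3 Y253A and 1 rep263A libraries, and in no WT or Empty library. The region at chr11:58511146-58511422, near OR5B21, was strong in 3 E260A libraries and 1 N278D library and in no WT or Empty library. A second OR9G1 region, chr11:56705631-56706819, was strong in 19 libraries, all 3 WT libraries among them, and in none of G244E, K243A, rep217A and Empty. These regions were picked after their values were seen.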
